A study of Mus musculus with 5 samples.

Results

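Transcripts of 8 chemokine genes were followed in B9 cells. This mouse line comes from cutaneous squamous cell carcinoma, and its labelled genotype is HRAS-Q61L. The genes were Ccl2, Ccl7, Ccl20, Cxcl1, Cxcl2, Cxcl3, Cxcl5 and Cxcl10. They were chosen by name, as chemokine genes of these cells, with earlier results of these data known. Every probe set annotated to 1 of these symbols alone was taken, 10 probe sets of the 45101 on the array. All 8 were on the array among 18193 genes with a symbol of their own, and 7 of them passed the filter on signal that left 10852 genes to be tested. Cultures received vemurafenib (PLX4032) or PLX7904, each at 1 µM, or dimethyl sulfoxide (DMSO) as vehicle, all for 17 h, and all 3 groups carry the same HRAS change. Vemurafenib inhibits mutant BRAF but can raise RAF-MEK-ERK signalling where RAS is mutant. PLX7904 belongs to the paradox breakers, BRAF inhibitors designed not to do so. Each compound had 2 arrays and DMSO had 1, all from 1 cell line. Every comparison with DMSO therefore rests on 1 array, whose spread was taken from the treated arrays. For the vehicle the labels state 0.2%, while the stock volume they give comes to 0.02% of the medium.

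Chemokines are small secreted proteins that draw leukocytes along a gradient, and keratinocytes and the tumours derived from them release several. Among the genes followed, Cxcl1, Cxcl2, Cxcl3 and Cxcl5 belong to the CXC class with an ELR motif before the first cysteines. Their products act on the receptor Cxcr2 and recruit neutrophils. Ccl2 and Ccl7 attract monocytes through Ccr2, Ccl20 attracts Ccr6-bearing lymphocytes and dendritic cells, and Cxcl10, which interferons induce, attracts activated T cells through Cxcr3. Transcription of many of these genes depends on NF-kB, and interleukin-1, interleukin-17 and tumour necrosis factor are among its usual triggers.

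The RefSeq promoter table (assembly GRCm38) held 5 of the 8 genes: Ccl20, Cxcl1, Cxcl2, Cxcl3 and Cxcl10. The 250 bases before the start of 4 of them are shown because they place Cxcl1, Cxcl2 and Cxcl3, members of a cluster in which Cxcl2 rose with vemurafenib and the other two did not pass, beside Ccl20, which fell. All 4 lie on the plus strand. Capitals mark matches, on either strand, to the NF-kB consensus, a motif of 10 letters, and in Cxcl3 also to the TATA box TATAAA.
Cxcl1, chr5:90890995-90891244: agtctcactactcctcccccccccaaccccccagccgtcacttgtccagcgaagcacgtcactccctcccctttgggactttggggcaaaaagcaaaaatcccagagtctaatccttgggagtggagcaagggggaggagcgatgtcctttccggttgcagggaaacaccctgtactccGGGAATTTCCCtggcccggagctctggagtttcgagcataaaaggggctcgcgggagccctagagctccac
Cxcl2, chr5:90903649-90903898: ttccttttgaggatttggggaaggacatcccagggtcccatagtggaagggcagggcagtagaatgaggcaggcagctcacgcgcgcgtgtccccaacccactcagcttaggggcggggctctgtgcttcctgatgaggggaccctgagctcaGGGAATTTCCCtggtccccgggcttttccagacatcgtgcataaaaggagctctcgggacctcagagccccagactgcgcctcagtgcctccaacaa
Cxcl3, chr5:90785851-90786100: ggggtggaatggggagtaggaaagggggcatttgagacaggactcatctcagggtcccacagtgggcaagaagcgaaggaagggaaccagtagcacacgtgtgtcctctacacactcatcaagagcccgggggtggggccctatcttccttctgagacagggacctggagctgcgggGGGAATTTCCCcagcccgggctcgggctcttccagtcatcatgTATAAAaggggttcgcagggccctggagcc
Ccl20, chr1:83116516-83116765: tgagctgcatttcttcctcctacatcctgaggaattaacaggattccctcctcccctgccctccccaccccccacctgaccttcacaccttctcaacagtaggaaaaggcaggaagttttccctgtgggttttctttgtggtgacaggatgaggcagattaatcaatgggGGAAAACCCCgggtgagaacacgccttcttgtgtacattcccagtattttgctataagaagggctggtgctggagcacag
Cxcl1, Cxcl2 and Cxcl3 carried the same 11 letters, GGGAATTTCCC, made of 2 overlapping matches, and the run began 71, 97 and 73 bases before the start in that order. Ccl20 had GGAAAACCCC, a match on the opposite strand, 80 to 71 bases before the start. The window of Cxcl10 held the consensus too, together with 1 match to the AP-1 motif TGANTCA and 1 to the core of the interferon response element (GAAA, any 2 bases, GAAA), neither of which matched in the other 4. A match to the NF-kB consensus was present in 7.25% of all 32851 promoter windows of this length, to TGANTCA in 6.75%, to the interferon response core in 2.98% and to TATAAA in 12.4%. These matches describe letters in a window, and none of the arrays measured binding there.

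The arrays gave 1 signal per probe set on a linear scale, with a median of 44.1 to 51.9 per array, and precision is limited by the small number of arrays. They are labelled biological replicates with nothing said of separate cultures, so the p-values cover only the spread among these arrays, which may be technical. All 13 epithelial and keratinocyte markers, Krt5, Krt14 and Trp63 among them, passed the filter on signal, with a summed signal of 140900 on the DMSO array, 164300 to 165500 with vemurafenib and 147000 to 149300 with PLX7904. Of 12 immune cell markers 5 did: S100a8, S100a9, Cd68, Csf1r and Cd74. Ptprc, the pan-leukocyte marker, read 23.7 to 57.7, and Cd3e, Itgam, Adgre1, Lyz2, Tyrobp and Fcer1g missed the filter as well. Cd68 read 67.0 with DMSO, 113 and 114 with vemurafenib, and 120 and 112 with PLX7904. Csf1r read 118, then 101 and 85.1, then 69.6 and 74.8, and Cd74 read 53.6, then 62.3 and 63.4, then 24.2 and 85.8. Cd68, Csf1r and Cd74 were not called in any comparison. The summed signal of the immune markers was 1678 on the DMSO array, 2274 to 2334 with vemurafenib and 1635 to 1809 with PLX7904. That difference lay in S100a8 and S100a9, which keratinocytes also make. Without them the sums were 400.9, 393.3 to 423 and 365.3 to 405.6. Of 8 fibroblast markers only Pdgfra passed the filter, and its level rose with vemurafenib (log2 1.53, adjusted p from limma 0.00327). The sums of all 8 were 190.9 with DMSO, 403.3 to 423.2 with vemurafenib and 214 to 267.9 with PLX7904. Much of these sums was Pdgfra itself, which read 83.3 with DMSO, 264 and 231 with vemurafenib, and 138 and 132 with PLX7904. Of 7 endothelial markers 1 passed, with sums of 204.9, 95.63 to 155.0 and 109.3 to 226.6 in that order, and of 5 melanocyte markers 0. The part of these markers in the chemokine results was not tested.

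The first comparison set vemurafenib against DMSO. Vemurafenib moved the chemokines in opposite directions: the monocyte attractant Ccl2 and the lymphocyte attractant Ccl20 fell, and the neutrophil attractant Cxcl2 rose. Of the 7 genes tested with limma (adjusted p under 0.05 over all genes tested), 3 passed, against 10.6% of all genes. Of these 1 rose, where 5.43% of all genes did, and 2 fell, where 5.21% did. These genes and the lists below were chosen with earlier results known, so such shares describe them and do not test them as a set. The other 4 tested, Ccl7, Cxcl1, Cxcl3 and Cxcl5, did not pass. The median log2 difference of the 7 was 0.08, beside -0.05 over all genes tested. The vemurafenib arrays did not overlap the DMSO array in any of the 7, but with 1 array on one side this held for 81.9% of all genes tested.

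**Figure D1:**
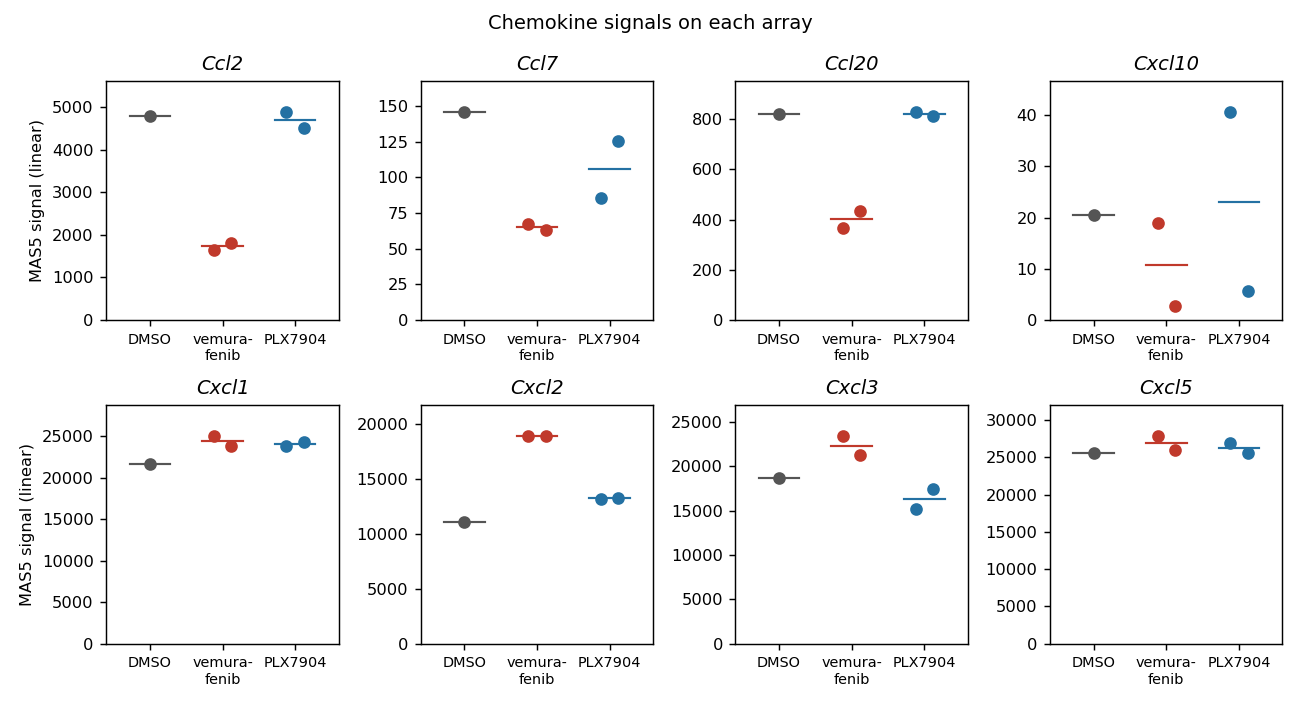
Signal of each chemokine gene on each of the 5 arrays (linear scale from 0, arbitrary units; points are arrays and horizontal lines group means; the probe set with the highest mean is shown). Ccl2 and Ccl20 were low on both vemurafenib arrays, Cxcl2 was high on them, and Cxcl10 read at most 40.6 anywhere.

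Among the CC chemokines, Ccl2 showed the largest difference. Its signal was 4787 on the DMSO array, 1653 and 1812 with vemurafenib, and 4885 and 4523 with PLX7904. Both vemurafenib arrays lay far below the other 3, and the DMSO array lay between the PLX7904 arrays. Ccl2 was 2.76 times lower with vemurafenib than with DMSO (95% interval 2.38 to 3.21; log2 -1.47, SE 0.10, adjusted p = 1.89e-05 from limma). By that p it ranked 14 among the 10852 genes tested, and by the size of the fall it ranked 56. It remained called under all 17 alternatives to the processing, at log2 -1.53 to -1.32. The margin was narrow without limma's trend of variance with intensity, where the adjusted p was 0.0495.

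Ccl20, the ligand of Ccr6, read 821 with DMSO, 366 and 435 with vemurafenib, and 827 and 814 with PLX7904. The vemurafenib arrays were again the low ones, and the DMSO array lay between the PLX7904 arrays. The fall was 2.05 times (95% interval 1.65 to 2.55; log2 -1.03, SE 0.14, adjusted p = 0.00172 from limma). Genes of similar brightness also leaned downwards, with a median log2 difference of -0.11 among the 2713 genes between the 25th and 50th percentile, and after quantile normalization Ccl20 stood at -0.96 (adjusted p = 0.00333). Without limma's trend of variance with intensity its call ended (adjusted p = 0.079). That setting called 43 of all 10852 genes tested, against 1154 in the fit reported.

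Ccl7 is a monocyte chemokine encoded next to Ccl2, and its signal was low throughout: 146 with DMSO, 67.5 and 62.8 with vemurafenib, and 85.5 and 126 with PLX7904. The vemurafenib arrays were again the lowest and DMSO the highest, but the PLX7904 arrays differed from each other by 37.9% of their mean, against 7.68% for Ccl2. The log2 difference between vemurafenib and DMSO was -1.12 (SE 0.36, adjusted p = 0.0728), which did not pass. The interval, 1.26 to 3.76 times lower, holds the 2.76 found for Ccl2. In the dimmest 25% of genes, to which Ccl7 belongs, the median log2 difference was -0.19. Next to this pair on chromosome 11 the annotation places Ccl11, Ccl12, Ccl8 and Ccl1. Ccl8 passed the filter with 36.1 to 79.1 (log2 -0.32, SE 0.53, not called), and Ccl11, Ccl12 and Ccl1 did not.

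Among the neutrophil-attracting CXC chemokines of the chosen genes, Cxcl2 rose and its 3 relatives did not pass. Ppbp, a further Cxcr2 ligand outside the chosen genes, also rose and is described below. Cxcl2 read 11126 with DMSO, 18942 and 18956 with vemurafenib, and 13236 and 13291 with PLX7904. The 3 groups were fully separated, and replicates differed by 0.0776% and 0.414% of their mean. Cxcl2 was 1.7-fold higher with vemurafenib than with DMSO (95% interval 1.55 to 1.88; log2 0.77, SE 0.06, adjusted p = 7.9e-05 from limma). By size of the difference it ranked 235 from the top. After quantile normalization the log2 difference was 0.63, with cyclic loess 0.64 and with median centring 0.92, and it was called in each. Without the intensity trend the call ended (adjusted p = 0.0708).

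Cxcl3, another Cxcr2 ligand, read 18657 with DMSO, 23450 and 21248 with vemurafenib, and 15169 and 17451 with PLX7904. Both vemurafenib arrays were above and both PLX7904 arrays below the DMSO array. Against DMSO the log2 difference with vemurafenib was 0.26 (SE 0.09, adjusted p = 0.0977), which did not pass. It passed without vemurafenib replicate 2 (log2 0.33, adjusted p = 0.0277), and, at the same size, without PLX7904 replicate 1 (0.032) or replicate 2 (0.0316), as adjusted p.

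Cxcl1 was the gene with more than 1 probe set. Of its 3, the one with the highest mean, whose name ends in s_at, read 21631 with DMSO, 25043 and 23874 with vemurafenib, and 23792 and 24325 with PLX7904, so that all 4 treated arrays lay above DMSO and the compounds overlapped. Its log2 difference between vemurafenib and DMSO was 0.18 (SE 0.06, adjusted p = 0.0964). The suffixes s and x mark probe sets that may match several transcripts. The one without such a suffix read 20451, then 25081 and 23932, then 22405 and 20602, with both vemurafenib arrays above the other 3. When each of 22278 probe sets was tested as a row of its own, the log2 difference was 0.26 for the unsuffixed probe set (adjusted p = 0.0655), 0.37 for the x probe set (0.0413) and 0.18 for the s probe set (0.142). The x probe set read 6072 with DMSO, 8276 and 7482 with vemurafenib, and 7151 and 6556 with PLX7904. In that test 1 of the 3 passed, at 1.3-fold. In the fit of genes with suffixed probe sets left out, the unsuffixed one passed as well (adjusted p = 0.0235 from limma). The call for Cxcl1 therefore depends on the probe set and on the fit.

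Cxcl5, also a Cxcr2 ligand, read 25525 with DMSO, 27885 and 25977 with vemurafenib, and 26885 and 25583 with PLX7904. The DMSO array was the lowest and the compounds overlapped. The log2 difference between vemurafenib and DMSO was 0.08 (SE 0.07, adjusted p = 0.506), with a 95% interval of 0.953 to 1.17-fold. A change of signal of the size of that of Cxcl2 lies outside this interval. Cxcl5 read brighter than Cxcl2 on every array, and whether signals at this level follow the amount of transcript was not tested.

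These 4 CXC genes were among the brightest probe sets, above 98.6% of all others on every array, where bright genes as a whole read higher with vemurafenib: the median log2 difference from DMSO was 0.16 in the brightest 2% of genes tested, which held all 4. Set beside this value, the differences of Cxcl1, Cxcl3 and Cxcl5 from DMSO were 0.18, 0.26 and 0.08. After quantile normalization they were -0.011, 0.09 and -0.15, and after cyclic loess 0.02, 0.11 and -0.09. That of Cxcl2 was 0.77. Within an array, the signal of Cxcl2 over that of Cxcl1, set to 1 for DMSO, was 1.47 and 1.54 with vemurafenib and 1.08 and 1.06 with PLX7904. Over Cxcl5 it was 1.56 and 1.67 against 1.13 and 1.19. Over Cxcl3 it was 1.35 and 1.5 against 1.46 and 1.28, so that this ratio did not separate the compounds. The genes are close relatives in sequence, and how far probe sets read a relative's transcript was not tested.

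Ratios between the classes moved further from DMSO. The signal of Ccl2 over that of Cxcl2, again set to 1 for DMSO, was 0.203 and 0.222 with vemurafenib and 0.858 and 0.791 with PLX7904. For Ccl20 over Cxcl2 it was 0.262 and 0.311 with vemurafenib and 0.846 and 0.829 with PLX7904. These ratios compare changes within an array and say nothing about which transcript was more abundant.

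Cxcl10, the interferon-induced ligand of Cxcr3, did not pass the filter. It read 20.5 with DMSO, 18.9 and 2.68 with vemurafenib, and 40.6 and 5.58 with PLX7904. Replicates differed by more than the groups did, and no direction can be read from them. Without the filter its log2 difference between vemurafenib and DMSO was -1.04 with an SE of 1.17 (adjusted p = 0.738 from limma).

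**Figure D2:**
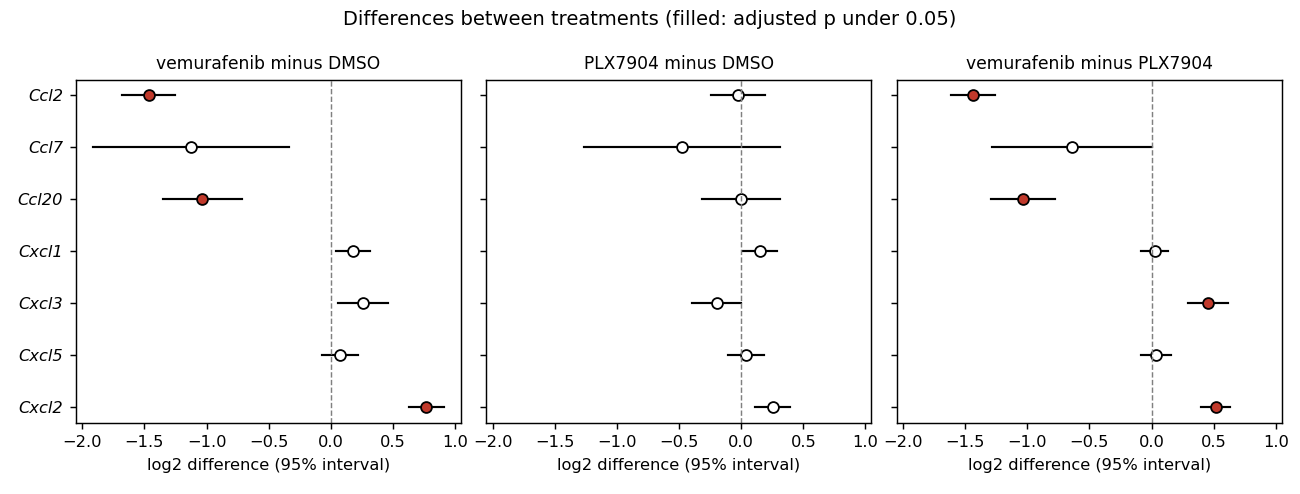
Log2 differences of the 7 chemokine genes tested, with 95% intervals, in the 3 comparisons (x axis, log2 of signal plus pseudocount; filled points have an adjusted p under 0.05 from limma). Ccl2 and Ccl20 lie near -1.47 and -1.03 against DMSO and near -1.44 and -1.03 against PLX7904, and close to 0 with PLX7904 against DMSO.

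The second comparison set PLX7904, the paradox breaker, against DMSO. With limma 0 of the 7 chemokine genes passed, as did 0% of all genes tested. At an unadjusted p under 0.05 there were 2 of the 7, Cxcl1 and Cxcl2, beside 722 of 10852 genes. The PLX7904 arrays did not overlap the DMSO array in 5 of the 7, all but Ccl2 and Ccl20, and in 66.4% of all genes tested. For Ccl2 the ratio of PLX7904 to DMSO was 0.982 (95% interval 0.845 to 1.14) and for Ccl20 0.999 (0.802 to 1.24), so that falls of the size seen with vemurafenib lie outside both intervals. Cxcl2 was 1.19-fold higher (1.08 to 1.31, adjusted p = 0.366) and Cxcl1 1.11-fold (1.01 to 1.22, adjusted p = 0.67), at a median log2 difference of 0.14 in the brightest 2% of genes. Cxcl3 stood at log2 -0.20 (SE 0.09, adjusted p = 0.752), Cxcl5 at 0.04 (SE 0.07) and Ccl7 at -0.48 (SE 0.36). Both comparisons use the same DMSO array.

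The third comparison set the compounds against each other at the same dose and time, as 1 pair, with p-values from limma adjusted over all genes. Of the 7 genes 4 passed, against 13.3% of all genes. Of these 2 were higher with vemurafenib, against 6.43% of all genes tested, and 2 were lower, against 6.87%. The same limit from the choice of genes applies to these shares. Ccl2 was 2.71 times lower with vemurafenib than with PLX7904 (95% interval 2.4 to 3.07, adjusted p = 3.93e-06) and Ccl20 2.05 times lower (1.71 to 2.45, adjusted p = 4.03e-04). Cxcl2 was 1.43-fold higher (1.32 to 1.55, adjusted p = 1.91e-04), and Cxcl3, which had not passed against DMSO, was 1.37-fold higher (1.23 to 1.54, adjusted p = 0.00301). In these 4 genes and in Ccl7 the vemurafenib arrays did not overlap the PLX7904 arrays, as held for 56% of all genes tested. The median log2 difference in the brightest 2% of genes was 0.02 in this comparison, and Cxcl3 kept its call after quantile normalization (log2 0.40) and cyclic loess (0.41). Without the intensity trend of limma the calls of Cxcl3 (adjusted p = 0.128), Cxcl2 (0.0681) and Ccl20 (0.0592) ended, and that of Ccl2 did not. The adjusted p of Ccl2 from limma reached at most 0.0437 under any alternative. Without the trend 35 of all 10852 genes tested were called, against 1443 in the fit reported.

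The other 3 did not pass. Ccl7 was 1.56 times lower with vemurafenib than with PLX7904 (95% interval 1 to 2.44, adjusted p = 0.182). With each treated array left out in turn its log2 difference ranged from -0.91 to -0.38. Cxcl1 differed by 1.02-fold (0.941 to 1.1) and Cxcl5 by 1.03-fold (0.945 to 1.11). These intervals do not show that the compounds act alike. The unsuffixed probe set of Cxcl1 read 1.14-fold higher with vemurafenib (1.04 to 1.25, adjusted p = 0.0851 over probe sets).

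Among 30 other chemokine ligands, 27 were on the array and 8 passed the filter. Of these 8, 1 rose with vemurafenib and 0 fell, where 10.6% of all genes tested passed in either direction. It was Ppbp, a platelet and epithelial chemokine whose processed form also acts on Cxcr2 and which lies between Cxcl5 and Cxcl3 in the cluster on chromosome 5. Ppbp read 11698 with DMSO, 21654 and 20330 with vemurafenib, and 9660 and 9158 with PLX7904. It rose 1.79-fold against DMSO (95% interval 1.61 to 2, adjusted p = 9.44e-05 from limma) and was 2.23-fold higher than with PLX7904 (2.04 to 2.44, adjusted p = 3.47e-06). Without the intensity trend the first of these calls ended (adjusted p = 0.0723 from limma). In order along the chromosome the log2 differences between vemurafenib and DMSO were thus 0.08 for Cxcl5, 0.84 for Ppbp, 0.26 for Cxcl3, 0.18 for Cxcl1 and 0.77 for Cxcl2, and Pf4 and Cxcl15, which lie among them, did not pass the filter. The 2 genes called were not neighbours. Cxcl16 (log2 0.13, SE 0.10) and Cx3cl1 (-0.26, SE 0.21), the membrane-bound chemokines, were not called. Over the 8 ligands the median log2 difference was 0.06.

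Of 21 chemokine receptors on the array 3 passed the filter, all of them atypical receptors, which bind chemokines without classical signalling. Cxcr2, Ccr2 and Ccr6, the receptors of the ligands that changed, did not pass it. Of the 3, 1 rose, where 5.43% of all genes did. Ackr3, which takes up Cxcl12, read 5009 with DMSO, 9371 and 9491 with vemurafenib, and 5095 and 5848 with PLX7904, a 1.88-fold rise (95% interval 1.64 to 2.16, adjusted p = 2.08e-04 from limma). Its call ended without the intensity trend (adjusted p = 0.0803). Ackr4 (log2 -0.72, SE 0.31) and Ackr1 (0.01, SE 0.41) were not called. The median over the 3 was 0.01.

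**Figure D3:**
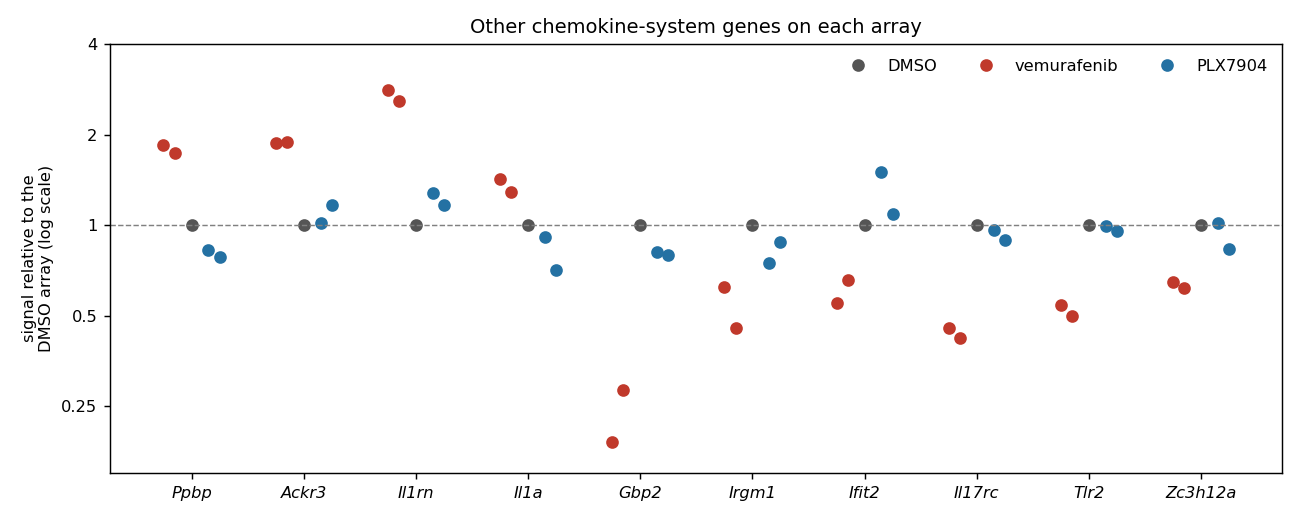
Signal of 10 genes of the other lists on each array, relative to the DMSO array (log scale; points are arrays). Ppbp, Ackr3, Il1rn and Il1a were high and the other 6 low on both vemurafenib arrays.

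Of 17 inducers of chemokine transcription and their receptors tested, 1 rose and 2 fell with vemurafenib, where 5.43% of all genes rose and 5.21% fell. Their median log2 difference was -0.19. Il1rn, the antagonist of the interleukin-1 receptor, read 365 with DMSO, 1027 and 940 with vemurafenib, and 465 and 424 with PLX7904, a 2.68-fold rise (95% interval 2.17 to 3.31). That call ended without the intensity trend of limma (adjusted p = 0.0558). Il1a, an interleukin-1 agonist, was 1.69-fold higher with vemurafenib than with PLX7904 (1.44 to 1.98, adjusted p = 0.00118, and 0.0969 without the trend) and 1.36-fold above DMSO (adjusted p = 0.0521, not called). Il17rc, a subunit of the interleukin-17 receptor, read 300.5 with DMSO, 136 and 126 with vemurafenib, and 290.0 and 268 with PLX7904, and fell 2.26 times against DMSO (1.66 to 3.07). That call ended under 2 of 15 alternatives, among them the mean of its probe sets (log2 -0.95, adjusted p = 0.328 from limma). Il17rc was also 2.09 times lower with vemurafenib than with PLX7904 (1.63 to 2.69). This call ended under 2 of 16 alternatives, over which log2 ranged from -1.12 to -0.48. Tlr2, a receptor of bacterial lipopeptides, fell 1.89 times (adjusted p = 0.0384 from limma), a call that ended under 9 of 16 alternatives. Ifngr1, an interferon-gamma receptor subunit, was 1.34 times lower than with PLX7904, and that call ended under 13 of 18. Between the compounds 2 of the 17 were higher and 3 lower, where 6.43% and 6.87% of all genes were. Tnf and Il6 did not pass the filter.

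Of 12 NF-kB subunits and feedback inhibitors tested 1 fell and 0 rose against DMSO, where 5.21% of all genes fell and 5.43% rose, at a median log2 difference of -0.15. Between the compounds 0 of the 12 were called with limma, where 13.3% of all genes tested passed. The one that fell was Nfkbiz, a nuclear cofactor of NF-kB, at log2 -0.32 (adjusted p = 0.0265). It stood at -0.32 with PLX7904 as well, where it was not called, and its call against DMSO ended under 6 of 17 alternatives. Nfkbia, a direct target of NF-kB, stood at 0.13 (adjusted p = 0.263) and Tnfaip3 at -0.48 (adjusted p = 0.0542).

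Of the interferon-stimulated genes, the class to which Cxcl10 belongs, 16 were on the array and 8 were tested. With vemurafenib 2 of the 8 fell, where 5.21% of all genes did, 0 rose and 6 did not pass. Their median log2 difference was -0.81, beside -0.05 over all genes tested and -0.19 in the dimmest 25% of them. That median is inflated by the filter on signal. Gbp3 (71.4 with DMSO, 31.2 and 19.2 with vemurafenib) and Irf7 (70.8, then 33.7 and 30.0) passed it only through the other groups. Their log2 differences, -1.42 and -1.08, were not called, and the median is not read as a shift of the class. Gbp2, a guanylate-binding protein, read 895 with DMSO, 170.0 and 253 with vemurafenib, and 729.6 and 709.5 with PLX7904, a fall of 4.26 times (95% interval 3.1 to 5.85, adjusted p = 2.01e-04 from limma), whose call ended without the intensity trend (adjusted p = 0.0722). Irgm1, an immunity-related GTPase, fell 1.87 times (1.34 to 2.6, adjusted p = 0.0247 from limma), a call that ended under 3 of 16 alternatives with an adjusted p of up to 0.15. Between the compounds 3 were lower, where 6.87% of all genes were. Ifit2 was the one in addition, at 2.1 times (1.56 to 2.81; adjusted p = 0.0843 without the trend of limma), and the call of Irgm1 there ended under 11 of 17 alternatives. Against DMSO with PLX7904 0 of the 8 were called with limma, as were 0% of all genes tested.

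Of 10 regulators of cytokine mRNA turnover 2 rose and 1 fell with vemurafenib, where 5.43% and 5.21% of all genes did, at a median log2 difference of -0.05. Zc3h12a, the endonuclease regnase-1, which degrades inflammatory transcripts, fell 1.57 times against DMSO (1.23 to 2.01, adjusted p = 0.0259 from limma) and was 1.45 times lower than with PLX7904 (1.19 to 1.77). The first of these calls ended under 6 of 17 alternatives and the second under 5 of 18. Zfp36l2, which promotes decay of transcripts with AU-rich elements, rose 1.33-fold against DMSO and stood 1.29-fold higher with PLX7904, where it was not called. Its call against DMSO ended under 2 of 17 alternatives. Pabpc1, the poly(A)-binding protein, rose 1.22-fold (adjusted p = 0.0154), a call that ended under 7 of 17 alternatives and turned to log2 -0.27 with suffixed probe sets left out. Zfp36l1 was 1.22 times lower with vemurafenib than with PLX7904 (adjusted p = 0.0374), a call that ended under 8 of 18. Zfp36, tristetraprolin, was not called in either comparison (log2 0.40 against DMSO, 0.62 against PLX7904, adjusted p = 0.309 and 0.0537).

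Likeness of profile was measured as the root mean square difference of log2 signals over the 5 arrays, each gene centred on its own mean, as a description without a test. Nearest to Ccl2 were Sertad4 (0.05), C730049O14Rik (0.05) and Glrb (0.06), and the nearest chemokine was Ccl20, 20th in that order at 0.21. Nearest to Ccl20 were Pcsk4 (0.05), Esco2 (0.06) and Rfx3 (0.08). Nearest to Cxcl2 were Prkg2, Krt18 and Gab2 (each 0.03), whereas Cxcl3, the chemokine closest to it, stood at 0.21 as the 965th gene. Nearest to Cxcl3 were Patj (0.03), Cpeb4 (0.04) and Fermt2 (0.05). None of these 4 chemokine genes had another chemokine among its 3 nearest genes. Chemokines were few among the 10852 genes tested, 7 chosen genes and 8 other ligands. Their absence there therefore does not show that they moved apart.

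**Figure D4:**
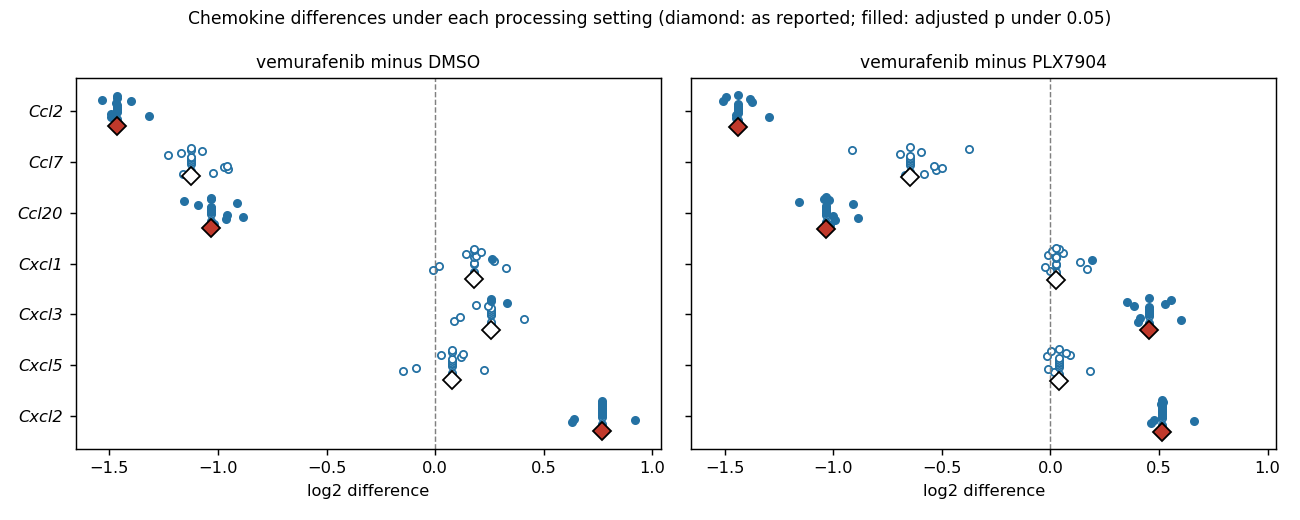
Log2 differences of the 7 chemokine genes against DMSO (left) and PLX7904 (right) under every processing setting tried (x axis; each point is 1 setting, diamonds are the values reported, filled symbols have an adjusted p under 0.05 from limma). Ccl2, Ccl20 and Cxcl2 kept their side of 0 throughout, whereas Cxcl1 and Cxcl5 lie on both sides.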

How the data were processed

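Biotin-labelled RNA of 5 B9 samples was hybridised to Affymetrix 3' expression arrays. The deposited values are MAS5 signals per the submitters' processing notes: 1 linear intensity per probe set. No version of MAS5 is given in the sources used here. Every array had been scaled to one level, since the middle 96% of its deposited values averaged 499.8. Detection calls were not used here.

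Probe sets were named from the platform annotation, and those with 1 symbol (34945) were kept. For a gene with several, the brightest probe set by the average of the 3 group means was used. The log2 of the signal plus 3.34 (the 10th percentile of all values) was analysed for genes with a mean of at least 47.4 (the median). Fold changes are on this scale, which understates changes of dim genes. limma 3.58.1 (R 4.3.3) fitted a mean per group across the 5 arrays (eBayes with an intensity trend, 2 residual and 8.27 prior degrees of freedom). Tests were two-sided, with Benjamini-Hochberg adjustment over all 10852 genes within a comparison. The threshold was an adjusted p of 0.05. The fit was tested on simulated data.

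The chemokine genes and the other gene lists were chosen with earlier results of these data known. The genes to be named were all 8 chemokines, up to 6 called genes per list by size, and the 3 nearest profiles of each called chemokine. Nfkbia, Tnfaip3, Zfp36, Cxcl16, Cx3cl1, Ackr1, Ackr4 and Ccl8 were named in addition, after their values were seen. Alternatives covered the pseudocount, filter, scaling, variance model, choice of probe set, a replicate block and leaving out arrays. Promoters were searched in Python 3.11.15, and figures drawn with matplotlib 3.10.9.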

Additional observations from a re-analysis of the deposited data

How the results depend on the processing

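Of 361 values of the 7 chemokine genes under the alternatives, 336 kept their direction and their side of the threshold, 5 lost it, 5 gained it and 15 changed sign. Without the intensity trend of limma the chemokine genes called fell to 1, Ccl2, both against DMSO and against PLX7904. The calls over all 10852 genes fell as well, from 1154 to 43 against DMSO and from 1443 to 35 between the compounds. With suffixed probe sets left out Cxcl1 was called as well, at log2 0.26 against DMSO (adjusted p = 0.0235) and 0.19 against PLX7904 (0.0342). After quantile normalization the difference from DMSO turned to -0.011 for Cxcl1 and -0.15 for Cxcl5 with vemurafenib, and to -0.011, -0.16 and, for Ccl20, 0.029 with PLX7904. Cyclic loess gave -0.089 for Cxcl5 with vemurafenib, -0.077 for Cxcl5 and 0.042 for Ccl20 with PLX7904, and -0.024 for Cxcl1 and -0.012 for Cxcl5 between the compounds. Median centring turned Ccl20 with PLX7904 to 0.0021. None of these values was called in the setting that turned it. Without 1 treated array at a time the difference of PLX7904 from DMSO ranged from -0.082 to 0.029 for Ccl2 and from -0.014 to 0.0099 for Ccl20, and that between the compounds from -0.011 to 0.058 for Cxcl1 and from -0.014 to 0.089 for Cxcl5. For vemurafenib against DMSO those fits gave log2 -1.53 to -1.40 for Ccl2, -1.16 to -0.91 for Ccl20 and 0.77 for Cxcl2. Between the compounds they gave -1.51 to -1.37 for Ccl2, -1.16 to -0.91 for Ccl20, 0.51 to 0.52 for Cxcl2 and 0.36 to 0.56 for Cxcl3. For the genes of the other lists the alternatives were chosen after seeing the data, and Pabpc1 turned to -0.27 as given above. A replicate block on the labels' numbers called the same number of chemokine genes, 3 against DMSO, 0 with PLX7904 and 4 between the compounds. Over all 10852 genes it called 1211, 4 and 1583 in that order. Nothing in the labels says that the numbers pair cultures, and the deviations of equally numbered arrays correlated at -0.007 across genes. The lone DMSO array could not be left out.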
